A study of Mus musculus with 6 samples.

Results

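The genes described here mark the 2 cell populations of the first embryonic circulation, the endothelium that lines vessels and the primitive red cells that fill them. They are 37 genes of the 12393 that could be named singly on the array, 24 of endothelium and 13 of the erythroid lineage, taken from named lists of lineage genes. All 37 were measured, by 56 probe sets in all, and each gene was given the average log2 ratio of its probe sets. In tissue from the presomitic mesoderm level of mouse embryos, no endothelial and no erythroid gene passed the test between Dll3 mutant and wild-type pools. By sign, 18 of the 24 endothelial genes (75.0%, beside 51.1% of all genes) were higher in the mutant, and 15 were without mutant pool 2. The largest differences were those of the receptor gene Tie1 and the sialomucin gene Emcn, each at 1.24-fold. The genotypes did not overlap for Tie1 but did for Emcn. The erythroid genes lay near 0, and the embryonic globin genes differed by at most 1.02-fold between the genotype means. The pool with the highest endothelial mean, mutant pool 2, had the lowest erythroid mean. Mutant pool 1 had the highest erythroid mean and the next highest endothelial mean, which lay at 0.00 on the log2 scale.

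Endothelial cells arise from mesodermal progenitors that turn on the receptor Kdr under the ETS factor Etv2, and Tal1 and Lmo2 then act in the progenitors of both vessel and blood. VEGF receptors, the angiopoietin receptor Tek and its relative Tie1 carry the signals for vessel growth, and Cdh5, Pecam1 and Cldn5 join the cells to each other. Primitive red cells form in the yolk sac and enter the embryo with the heartbeat, carrying embryonic globins made under Gata1 and Klf1. Dll3 is a Notch ligand known for its role in the segmentation clock of the presomitic mesoderm.

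The embryos were taken at 9.5 days post coitum and were on a C57BL/6 background per the labels. There were 3 wild-type pools and 3 pools of embryos homozygous for the targeted allele Dll3tm1Rbe, also written Dll3neo, and each pool was hybridised to 1 array. Per the labels' protocols, residual allantois was cleared away and the embryo was cut behind the newest somite, so the tissue held all germ layers together with the vessels and blood that ran through it. Each pool is a separate biological replicate by the series' design, though the sources used here do not say how many embryos went into a pool. The deposited values divide each probe set by its median across the 6 arrays, which lets pools be compared gene by gene but keeps no absolute level. Whether a marker was present at all therefore cannot be read from these values, and in bulk tissue fewer cells of a type cannot be told apart from less RNA per cell.

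Dll3, the targeted gene, was the 1 gene of 12393 that passed over all genes (0.00807%). It fell by 1.76 on the log2 scale in the mutant (SE 0.13, limma adjusted p = 0.00132), and the genotypes did not overlap. Genotypes failed to overlap for 4.95% of all genes, 3.11% with the mutant higher and 1.84% with the mutant lower. The median log2 ratio over all genes lay between -0.03 and 0.01 in the 6 pools. Wild-type pool 3 had the widest spread, with an SD of log2 ratios over probe sets of 0.303, against 0.166 to 0.234 in the other 5. It was the highest pool for 4268 and the lowest for 4037 of the 12393 genes, so extreme values there are common over the whole array. In mutant pool 1 the 23 heart muscle genes compared had a mean log2 ratio of 1.80, against -0.22 to -0.03 in the other 5 pools, and Myl7, the atrial myosin light chain gene, reached a ratio of 19.5 there. Values without this pool are given beside the results that it bears on most. All ratios and differences below are relative to the median of the same gene, and adjusted p-values are over all 12393 genes.

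**Figure D1:**
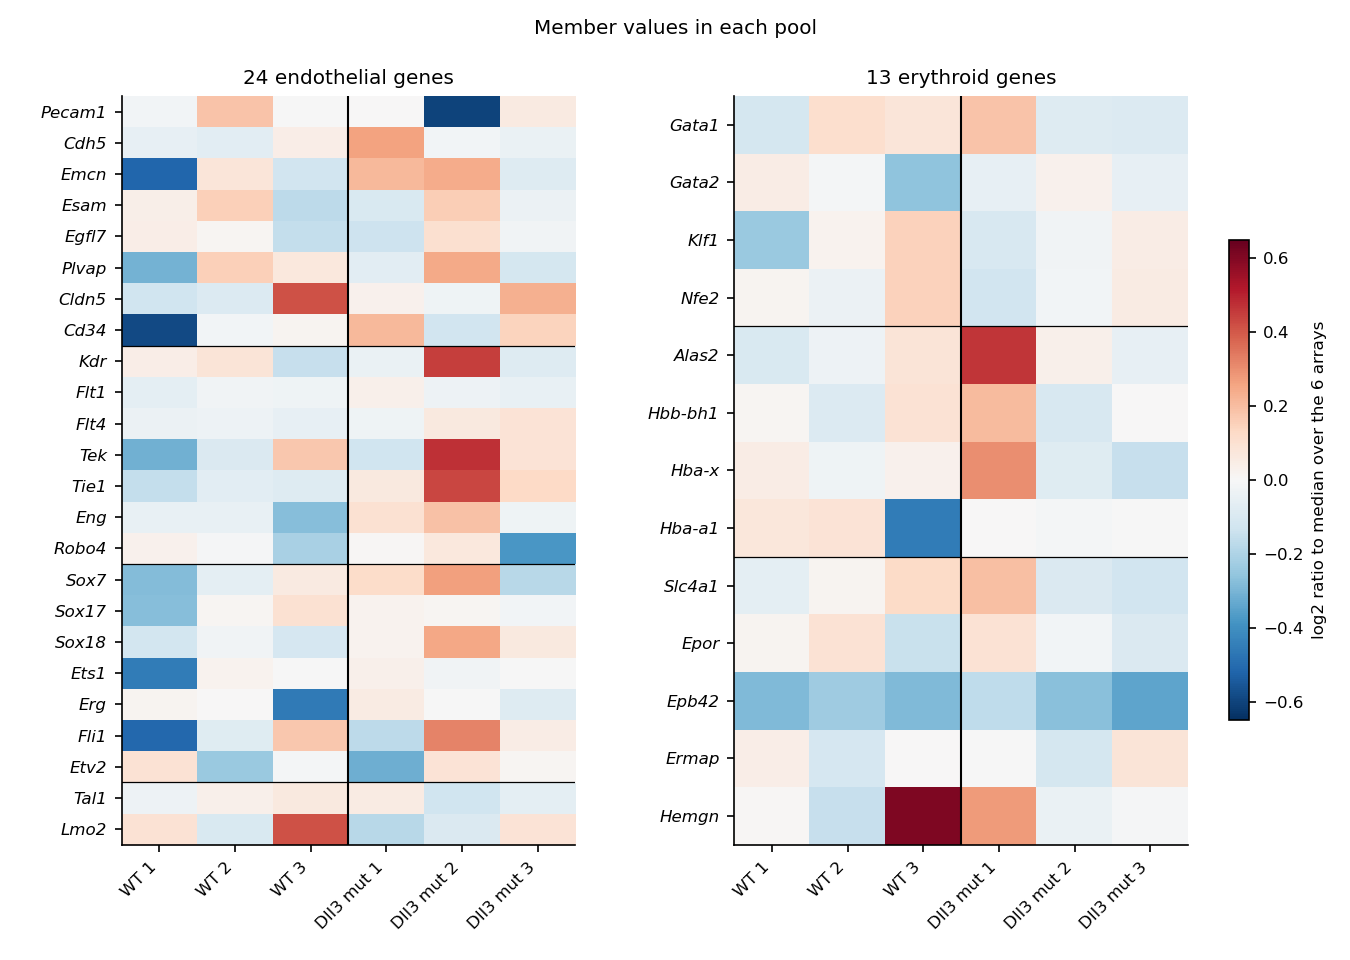
Log2 ratio of each member (rows) in each pool (columns; WT, wild type; Dll3 mut, mutant), with horizontal lines between groups of related function and the vertical line between genotypes. Red is above and blue below the median of that gene. Mutant pool 2 was the highest pool for 12 of 24 endothelial genes and mutant pool 1 for 6 of 13 erythroid genes. Over all 12393 genes, mutant pool 2 was the highest for 1948 and mutant pool 1 for 1473.

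Among the endothelial genes, 0 passed the test in either direction, and 1 of 24, Tie1, had an unadjusted p under 0.05. Over all genes 1.28% had such a p. The median log2 difference of the 24 was 0.09, against 0.00 over all genes, and 75.0% were higher in the mutant by sign, against 51.1% of all genes. In 4 of 24 genes, Tie1, Eng, Sox18 and Flt4, the 3 mutant values lay above the 3 wild-type values, and no gene showed the opposite order. That is 16.7% of the endothelial genes, beside 3.11% of all genes with the mutant higher. The count was 3 under quantile normalization, where Eng overlapped, and 2 (Tie1 and Sox18) when each gene was read by its widest-ranging probe set, where 15 were higher and 9 lower by sign. Both probe sets of Eng and both of Flt4 overlapped between genotypes when read singly. Without mutant pool 1 these 4 genes again lay higher without overlap, as 8.34% of all genes did in those 5 pools, Tal1 lay lower, 18 of 24 were higher by sign and the median was 0.10. Without mutant pool 2, 15 of 24 were higher by sign and the median was 0.06, and without wild-type pool 1 it was 0.05. The members' median range over the 6 pools was 0.50 on the log2 scale, against 0.38 for all genes.

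The receptors of vessel growth signals held 3 of the 4 genes without overlap. Tie1, an endothelial tyrosine kinase that modulates angiopoietin signalling, had ratios of 0.899, 0.954 and 0.942 for pools 1 to 3 of the wild type, set against 1.05, 1.35 and 1.09 for pools 1 to 3 of the mutant. The mutant values all lay above the wild-type values, and pool 2 was the highest of them. Its wild-type mean was 0.932 ± 0.0289 and its mutant mean 1.16 ± 0.163 (SD, n = 3 each), a log2 difference of 0.31 that did not pass (95% interval 0.05 to 0.57, limma adjusted p = 0.99998). Without mutant pool 2 the difference was 0.20. Eng, the endoglin co-receptor for BMP and TGF-beta ligands, was read by 2 probe sets and had mean ratios of 0.968, 0.968 and 0.826 in the wild-type pools and 1.07, 1.14 and 0.9801 in the mutant pools. The lowest mutant and the highest wild-type value of Eng were thus close to each other, and its log2 difference was 0.21 (95% interval -0.04 to 0.46). The 2 probe sets of Eng gave 0.26 and 0.16.

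Tek, the angiopoietin receptor, had ratios of 0.805, 0.937 and 1.13 in the wild-type pools and 0.915, 1.39 and 1.06 in the mutant pools. Its genotypes overlapped, and the difference of 0.22 on the log2 scale became 0.06 without mutant pool 2. Kdr, the main VEGF receptor of early endothelium, had ratios of 1.03, 1.06 and 0.901 among wild-type pools and 0.971, 1.37 and 0.942 among mutant pools. Apart from mutant pool 2, the mutant values of Kdr lay below 2 of the 3 wild-type values, and without that pool the log2 difference turned from 0.12 to -0.06. Flt4, the VEGF-C receptor, separated the genotypes by little, with mean ratios from 0.963 to 0.977 among wild-type pools and from 0.982 to 1.07 among mutant pools (log2 difference 0.09). For Flt1, the VEGF receptor that also acts as a decoy, the mean ratios of 3 probe sets ran only from 0.958 to 1.02 over the 6 pools (log2 difference 0.02, 95% interval -0.19 to 0.23). Robo4, a guidance receptor of endothelium, had a log2 difference of -0.04 and its lowest ratio, 0.768, in mutant pool 3.

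The promoters of Tie1 and Tek, the pair of related receptors that were highest in mutant pool 2, are shown as the 250 bases before the annotated start, 5′ to 3′ on the gene's strand, from RefSeq (GRCm38.p6). Tie1 lies on the minus strand at chr4:118489850-118490099 and Tek on the plus strand at chr4:94739039-94739288. Capitals mark matches on either strand to CACCC, the core bound by Klf1 and related factors, to AGATAA or TGATAA, words of the GATA factors, and to CAGGAAG, a word of the ETS factors, and no marked matches overlap each other in these promoters.
Tie1: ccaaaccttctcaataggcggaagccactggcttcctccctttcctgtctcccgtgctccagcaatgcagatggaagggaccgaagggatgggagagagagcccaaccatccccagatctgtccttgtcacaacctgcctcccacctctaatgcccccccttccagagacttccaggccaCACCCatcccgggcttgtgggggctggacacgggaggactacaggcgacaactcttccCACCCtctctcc
Tek: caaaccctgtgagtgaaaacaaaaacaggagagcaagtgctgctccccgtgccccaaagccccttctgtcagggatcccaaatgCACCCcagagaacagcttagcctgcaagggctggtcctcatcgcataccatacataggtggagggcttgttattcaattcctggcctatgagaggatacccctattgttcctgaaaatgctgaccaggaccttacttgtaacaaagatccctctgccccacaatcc
Both hold CACCC alone, 2 matches in Tie1 and 1 in Tek, and CACCC occurs in 52.0% of the 32851 promoters of the table. Of the 24 endothelial genes 14 had a promoter there. An ETS word was found for 5 of these 14 (Cd34, Egfl7, Emcn, Robo4 and Erg), in 6 of their 19 promoters, against 10.8% of all promoters, and a GATA word for 3 (Egfl7, Tal1 and Erg), in 3 of 19, against 16.6%.

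Surface and junction genes were less uniform. Emcn, a sialomucin of venous and capillary endothelium, had ratios of 0.70, 1.06 and 0.917 among wild-type pools and 1.16, 1.18 and 0.945 among mutant pools. The third mutant pool lay among the wild-type values, and the log2 difference of 0.31 (95% interval -0.04 to 0.66) became 0.15 without wild-type pool 1. Cd34, a sialomucin of endothelium and blood progenitors, had ratios of 0.667, 0.987 and 1.01 against 1.16, 0.916 and 1.11. It too was lowest in wild-type pool 1, and without that pool its log2 difference went from 0.27 to 0.08. Pecam1, the adhesion molecule CD31, ran the other way, with ratios of 0.989, 1.14 and 0.997 among wild-type pools and 1.003, 0.660 and 1.04 among mutant pools. Its single probe set was thus lowest in mutant pool 2, the pool where Tie1, Tek and Kdr were highest, and without that pool its log2 difference of -0.23 became -0.02. Cdh5, the cadherin of endothelial junctions, had mean ratios of 0.963, 0.952 and 1.03 among wild-type pools and 1.199, 0.988 and 0.972 among mutant pools. Its 2 probe sets disagreed in mutant pool 2, where they read 0.776 and 1.26. Plvap, the fenestral diaphragm gene (log2 difference 0.05), the claudin gene Cldn5 (0.01), the secreted factor gene Egfl7 (0.02) and the junction gene Esam (about 0.00) hardly differed between the genotype means, though wild-type pool 3 held a ratio of 1.33 for Cldn5.

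Of the endothelial transcription factors, 6 of 7 were higher in the mutant by sign and 1 separated the genotypes. Sox18, a SOXF factor of vessel and lymphatic development, had ratios of 0.920, 0.983 and 0.927 among wild-type pools and 1.02, 1.19 and 1.05 among mutant pools. All mutant values lay above the wild-type values, with a log2 difference of 0.20 (95% interval -0.03 to 0.43, limma adjusted p = 0.99998). Its relatives Sox7 (0.16) and Sox17 (0.06) overlapped between genotypes, and the 2 probe sets of Sox17 gave 0.18 and -0.05. Fli1, an ETS factor of endothelium and blood, had the widest range of the endothelial genes, with mean ratios of 0.703, 0.947 and 1.13 among wild-type pools and 0.888, 1.25 and 1.03 among mutant pools. The spread within the wild type was wider than the difference from the mutant, 0.20 on the log2 scale, which became 0.02 without wild-type pool 1. Ets1 was lowest in the same pool, at a mean ratio of 0.731, but its 4 probe sets read 0.994, 1.09, 0.619 and 0.425 there. Their log2 differences ran from -0.08 to 0.46. Erg had a log2 difference of 0.13, which rested on a ratio of 0.728 in wild-type pool 3 and was -0.02 without it. Etv2, the factor that starts the endothelial programme, had ratios of 1.07, 0.846 and 0.992 among wild-type pools and 0.803, 1.06 and 1.01 among mutant pools, with a log2 difference of -0.02. Tal1 and Lmo2, which also act in blood progenitors, had log2 differences of -0.07 and -0.20, opposite in sign to that of Fli1. The value of Lmo2 was -0.06 without wild-type pool 3.

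**Figure D2:**
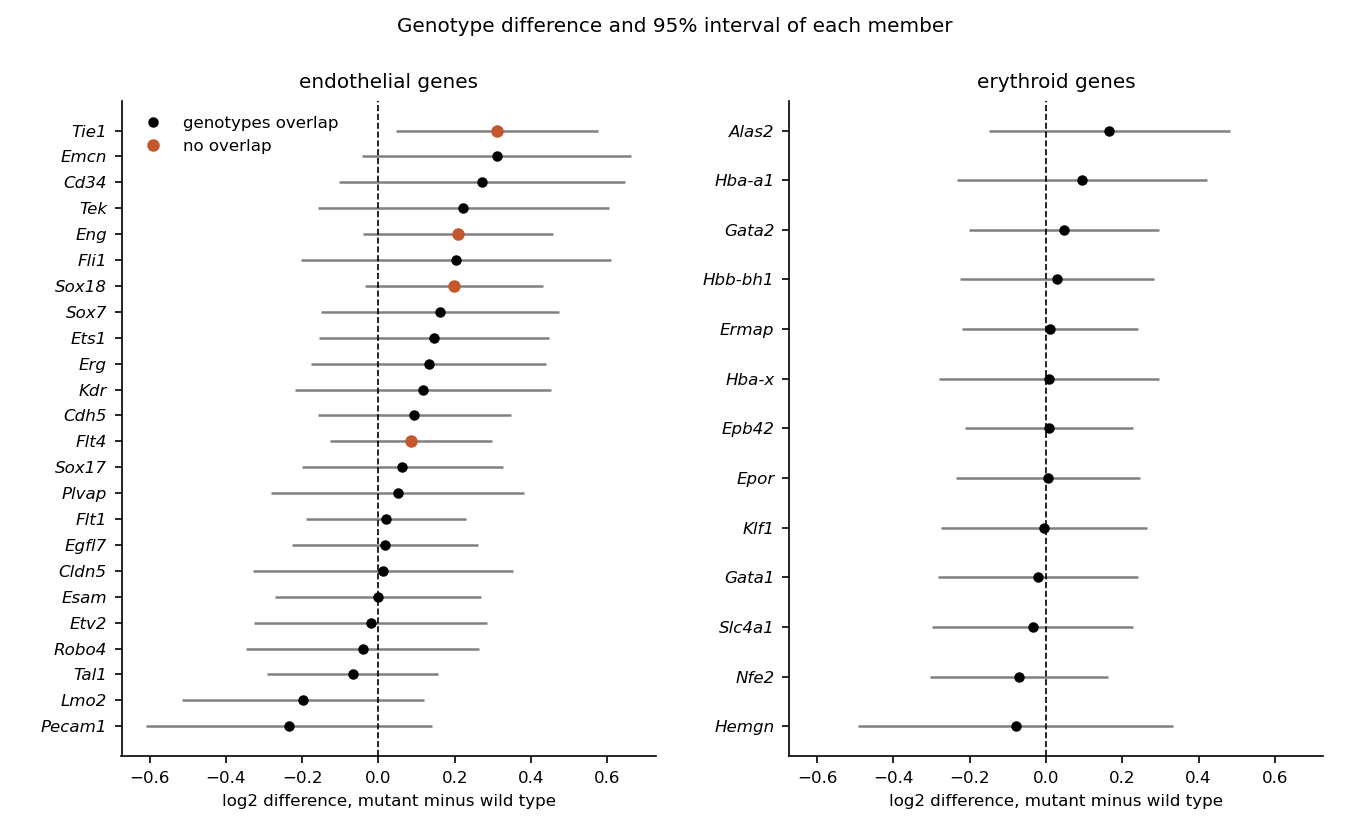
Log2 difference of each member, mutant minus wild type, with its 95% interval from limma (grey line), sorted by size. Orange points mark the 4 genes whose genotypes did not overlap, all endothelial, and 36 of the 37 intervals include 0, the exception being Tie1.

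Values of the erythroid genes lay close to each other in both genotypes. Of 13 genes 0 passed the test in either direction and 0 had an unadjusted p under 0.05. The genotypes overlapped for every one of the 13, where 4.95% of all genes did not overlap. By sign 8 were higher and 5 lower in the mutant, the median log2 difference was 0.01, and 12 of 13 differences were under 0.1 in size. Their 95% intervals all included 0, the narrowest being that of Epb42 (-0.21 to 0.23) and the widest that of Hemgn (-0.49 to 0.33). The interval of Epb42 is for the average of 2 probe sets whose log2 differences were -0.14 and 0.15. Without mutant pool 1 the median was -0.04, 5 of 13 were higher by sign, and Slc4a1 and Hba-x lay lower without overlap, as 4.42% of all genes did in that set of 5 pools.

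The embryonic globin genes and Alas2 had the same highest pool. Hbb-bh1, the embryonic beta-like globin gene, had mean ratios of 1.01, 0.941 and 1.07 among wild-type pools and 1.16, 0.929 and 1.002 among mutant pools. Its 3 probe sets gave log2 differences from 0.00 to 0.06, and its 95% interval for the mutant over the wild type ran from 0.855-fold to 1.22-fold. Hba-x, the embryonic alpha-like globin zeta gene, had ratios of 1.03, 0.981 and 1.02 among wild-type pools and 1.23, 0.948 and 0.90 among mutant pools. The wild-type pools of Hba-x lay close together, and the mutant pools spread to both sides of them, which left a log2 difference of 0.01 (95% interval -0.28 to 0.30, limma adjusted p = 0.99998). Alas2, the enzyme that opens haem synthesis in red cells, had ratios of 0.933, 0.976 and 1.06 among wild-type pools and 1.38, 1.02 and 0.964 among mutant pools. Its log2 difference of 0.17 was the largest of the erythroid genes, and it became 0.01 without mutant pool 1. The other two values of each gene in the mutant lay within or below the wild-type range. Hba-a1, an adult-type alpha globin gene, followed another course, at 1.05, 1.07 and 0.729 among wild-type pools and from 0.992 to 1.001 among mutant pools, so that wild-type pool 3 alone stood apart. A further 3 probe sets are assigned to Hba-a1 together with Hba-a2 and were not used for either gene.

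**Figure D3:**
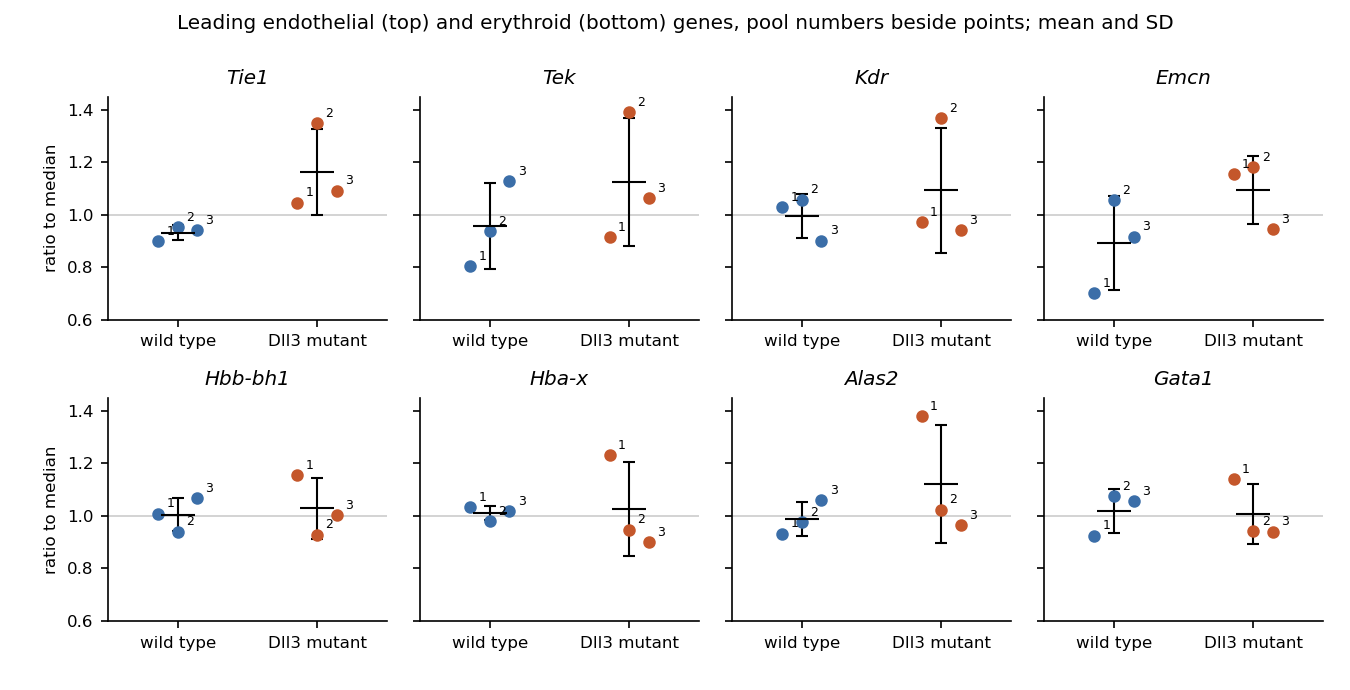
Ratio to the median over 6 arrays for 4 endothelial genes (top) and 4 erythroid genes (bottom) in each pool, with the pool number beside each point and the mean and SD of 3 pools as bars. Tie1, Tek, Kdr and Emcn were highest in mutant pool 2, while Hbb-bh1, Hba-x, Alas2 and Gata1 were highest in mutant pool 1. Over the full lists, mutant pool 2 was the highest for 12 of 24 endothelial genes and mutant pool 1 for 6 of 13 erythroid genes. Genes not shown include Pecam1 and Tal1, lowest in mutant pool 2, and Nfe2, lowest in mutant pool 1.

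The erythroid transcription factors did not all follow the globins. Gata1, the master regulator of red cell genes, had ratios of 0.925, 1.08 and 1.06 among wild-type pools and 1.14, 0.943 and 0.940 among mutant pools, again highest in mutant pool 1. Klf1, the activator of globin and other red cell genes, was below its median there, with ratios of 0.847, 1.02 and 1.11 among wild-type pools and 0.929, 0.984 and 1.03 among mutant pools. Nfe2, a subunit of the globin enhancer factor NF-E2, had ratios of 1.01, 0.973 and 1.11 against 0.917, 0.989 and 1.04, and was lowest in mutant pool 1. Log2 differences were -0.02 for Gata1, -0.01 for Klf1 and -0.07 for Nfe2, and 0.05 for Gata2, the factor of early blood progenitors.

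Hemgn, a nuclear protein of red cell precursors, had the widest range of the erythroid genes. It had ratios of 1.004, 0.902 and 1.52 among wild-type pools and 1.21, 0.969 and 0.996 among mutant pools. Wild-type pool 3, the array with the widest spread over all genes, was far above the others. Without it the log2 difference of Hemgn turned from -0.08 to 0.15. Slc4a1, the anion exchanger band 3 of the red cell membrane, was read by 3 probe sets that disagreed, with log2 differences of 0.17, -0.21 and -0.06. The first of these, 1416464_at, was highest in mutant pool 1 at 1.40, the second in wild-type pool 1 at 1.24 and the third in wild-type pool 3 at 1.42. Epb42, the membrane skeleton protein 4.2, had 2 probe sets of opposite sign, and 1 of them had a median below 1 over the 6 arrays, as 1640 probe sets of the array did. The erythropoietin receptor gene Epor (0.01) and the red cell surface gene Ermap (0.01) hardly differed between genotypes. Of the 12 members with more than 1 probe set, 6 had probe sets of opposite sign.

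Promoters are shown for Hba-x and Alas2, which shared the pattern of high mutant pool 1, and for Klf1, which did not, in the same windows and with the same capitals as for Tie1 and Tek. They lie on the plus strand at chr11:32276350-32276599, chrX:150547167-150547416 and chr8:84901732-84901981, in GRCm38.p6.
Hba-x: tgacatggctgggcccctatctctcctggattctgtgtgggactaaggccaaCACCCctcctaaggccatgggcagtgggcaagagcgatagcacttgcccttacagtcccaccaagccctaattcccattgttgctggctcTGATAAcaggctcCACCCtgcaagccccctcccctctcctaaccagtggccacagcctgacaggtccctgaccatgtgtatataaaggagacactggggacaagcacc
Alas2: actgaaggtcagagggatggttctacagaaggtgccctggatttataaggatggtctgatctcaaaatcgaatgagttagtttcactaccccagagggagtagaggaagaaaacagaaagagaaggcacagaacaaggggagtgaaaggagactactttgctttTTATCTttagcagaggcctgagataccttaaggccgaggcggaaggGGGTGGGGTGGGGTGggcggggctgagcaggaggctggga
Klf1: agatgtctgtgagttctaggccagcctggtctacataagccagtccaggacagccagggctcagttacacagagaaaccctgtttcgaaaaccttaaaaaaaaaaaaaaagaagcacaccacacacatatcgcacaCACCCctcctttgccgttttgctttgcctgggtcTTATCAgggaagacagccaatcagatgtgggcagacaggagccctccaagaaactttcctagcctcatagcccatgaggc
Each of the 3 holds a GATA word, starting 108 bases before the start in Hba-x, 86 in Alas2 and 80 in Klf1, and each holds at least 1 CACCC. Promoters were found for 10 of the 13 erythroid genes. A GATA word was present for 8 of these 10, in 8 of their 11 promoters, against 16.6% of all promoters, and an ETS word for 1, Gata1, against 10.8%. The matches describe letters in these windows, in genes that followed different patterns over the pools.

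The endothelial and erythroid genes were then set side by side by pool. The mean log2 ratio of the 24 endothelial genes was -0.15, -0.01 and -0.01 for pools 1 to 3 of the wild type, set against 0.00, 0.10 and -0.01 for pools 1 to 3 of the mutant. That of the 13 erythroid genes was -0.04, -0.03 and 0.01 in the wild-type pools and 0.10, -0.06 and -0.06 in the mutant pools. Mutant pool 2, the highest for endothelial genes, was thus the lowest for erythroid genes, and wild-type pool 1, the lowest for endothelial genes, was the fourth in the erythroid order. In mutant pool 2 the log2 ratio was above 0 for 15 of 24 endothelial genes and 2 of 13 erythroid genes, beside 6976 of all 12393 genes. In mutant pool 1 it was above 0 for 15 of 24 and 8 of 13, beside 4797 of all 12393 genes. Mutant pool 2 was the highest of the 6 pools for 12 of 24 endothelial genes, 0 of 13 erythroid genes and 1948 of all 12393 genes. For mutant pool 1 these counts were 5, 6 and 1473. Across the 6 pools Pearson's r between the list means was 0.00 and Spearman's rho was -0.14, given as a description of 6 arrays on which both lists were read. Without the 2 pools farthest from the median of the endothelial mean, wild-type pool 1 and mutant pool 2, Pearson's r over the remaining 4 was 0.80 and rho was 0.40, but the endothelial means of these 4 spanned only -0.013 to 0.0025. The value over 6 pools thus rests on the 2 left out, and that over 4 pools on a very narrow range. Leaving out 1 pool at a time, r ran from -0.37 without wild-type pool 1 to 0.42 without mutant pool 2.

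**Figure D4:**
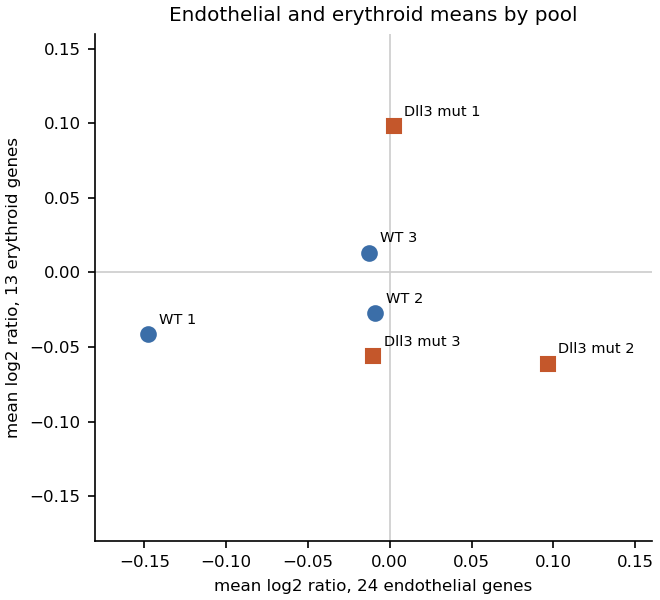
Mean log2 ratio of the 24 endothelial genes (horizontal) against that of the 13 erythroid genes (vertical), 1 point for each pool. Mutant pool 1 is highest on the erythroid axis at 0.10 and mutant pool 2 is highest on the endothelial axis at 0.10 but lowest on the erythroid axis at -0.06.

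Pairs of genes were compared as well. The median r over 6 pools was 0.16 for the 276 pairs of endothelial genes, 0.06 for the 78 pairs of erythroid genes and about 0.00 for the 312 pairs of an endothelial with an erythroid gene, beside 0.01 for all pairs of genes on the array. An r above 0.5 was found for 27.2%, 29.5% and 16.3% of these pairs, and for 24% of all pairs. Values of r ran from -0.911 to 0.986 among endothelial pairs and from -0.915 to 0.933 among erythroid pairs. Tie1 and Sox18 had an r of 0.99, the highest of the 276, Tek and Fli1 0.96, and the pairs among Hbb-bh1, Hba-x and Alas2 0.78 to 0.85. Without mutant pool 1 the first pair kept 0.99 and the second 0.96, while the pairs among Hbb-bh1, Hba-x and Alas2 had 0.06 to 0.39, so their likeness rests on that pool. Some pairs across the lists were as close, such as Cdh5 with Alas2 at 0.99, both of them highest in mutant pool 1, and 0.86 without it.

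Further genes of each lineage, listed by name and not members, showed the same pools high and low. Of 39 other endothelial genes 33 were measured and 0 passed in either direction. By sign 29 were higher in the mutant and 4 lower, with a median log2 difference of 0.11, and 4 (12.1%, beside 3.11% of all genes) were higher without overlap: Nr2f2, the factor of venous identity, the receptor genes Nrp2 and Adgrl4, and Mef2c. Leaving out wild-type pool 1 gave a median of 0.055, leaving out mutant pool 2 gave 0.051, and array weights gave 0.039, where 24 were higher and 9 lower by sign. The count without overlap was 1 with the widest-ranging probe set, 2 under quantile normalization and 10 without mutant pool 3, where 8.0% of all genes were higher without overlap. Nr2f2 had mean ratios of 0.719, 0.954 and 1.002 among wild-type pools and 1.04, 1.23 and 1.05 among mutant pools (log2 difference 0.32, limma adjusted p = 0.99998). Their list mean was -0.14, -0.02 and -0.08 in the wild-type pools and 0.03, 0.08 and -0.05 in the mutant pools, the same order of pools as for the members. Of 46 other erythroid genes 36 were measured, 0 passed, and 20 were higher and 16 lower by sign with a median of 0.01. Over the 6 pools Hba-a2, an adult-type alpha globin gene, was the 1 gene among them whose genotypes did not overlap. It had ratios of 1.18, 1.10 and 1.004 among wild-type pools and from 0.986 to 0.996 among mutant pools. Without mutant pool 1, 15 of the 36 were higher and 21 lower by sign, with a median of -0.019. In those 5 pools 6 of the 36 were lower without overlap (Hbb-y, Hba-a2, Sptb, Tfrc, Car2 and Kit), beside 4.42% of all genes. Urod was the 1 gene higher without overlap there, beside 8.34% of all genes. Their list mean was again highest in mutant pool 1 (0.06) and lowest in mutant pool 2 (-0.07). Slc25a37, the mitochondrial iron importer of red cells, reached mean ratios of 1.48 in wild-type pool 3 and 1.51 in mutant pool 1 and stayed between 0.931 and 1.01 elsewhere. Hbb-y, another embryonic beta-like globin gene, was highest in mutant pool 1 at 1.06. In mutant pools 2 and 3 it read 0.9655 and 0.9698, below the wild-type values of 0.9715 to 0.9959. Tfrc, the transferrin receptor of dividing and haemoglobin-making cells, was lowest in mutant pool 2 at 0.566.

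**Figure D5:**
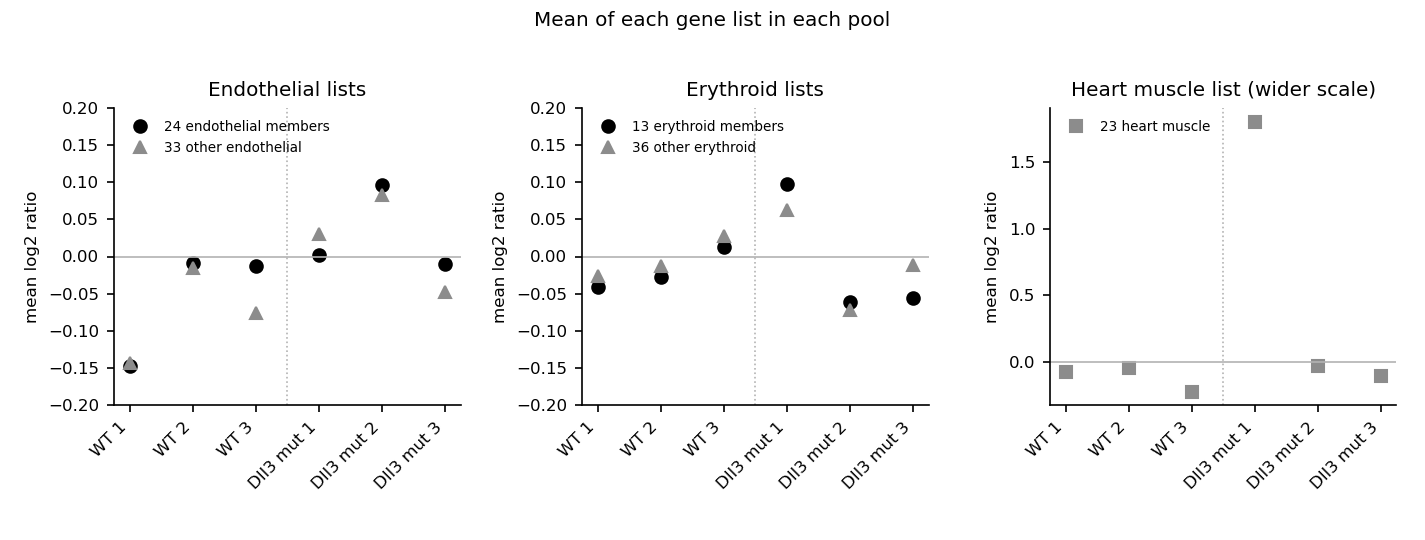
Mean log2 ratio in each pool of the endothelial members and 33 other endothelial genes (left), the erythroid members and 36 other erythroid genes (middle) and 23 heart muscle genes (right, on a wider scale). Endothelial lists are lowest in wild-type pool 1 and highest in mutant pool 2, erythroid lists are highest in mutant pool 1, and heart muscle genes are high in mutant pool 1 alone.

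Of the heart muscle genes 23 of 23 were higher in the mutant by sign, and their mean was highest in mutant pool 1, at 1.80. The erythroid mean was also highest in mutant pool 1, at 0.10, and 6 of 13 erythroid genes were highest there. Without that pool 15 heart genes were higher and 8 lower by sign, and their median difference was 0.03 on the log2 scale. Pearson's r between the heart and erythroid means was 0.86 over the 6 pools and Spearman's rho was 0.09, and without mutant pool 1 r was -0.81 and rho -0.60. The part of heart tissue in the erythroid values was not tested. Genes of other cells of the vessel wall and blood were compared in the same way, and 0 passed in any list. Mural cell genes, which mark pericytes and smooth muscle, were higher by sign for 9 of 11 with a median of 0.14. Only 1 of the 11 (9.09%, beside 3.11% of all genes) was higher without overlap. It was Tagln, an actin-binding protein gene of smooth muscle, at 1.42, 1.18 and 1.03 in the mutant pools against 0.861, 0.970 and 0.784. Smooth muscle genes are also active in the early heart, and Tagln, Acta2 and Cnn1 were each highest in mutant pool 1. Without that pool the mural median was 0.12, Tagln was again higher without overlap, and its log2 difference went from 0.47 to 0.34, that of Acta2 from 0.28 to 0.10 and that of Cnn1 from 0.38 to 0.22. Macrophage and platelet genes (12 of 17 higher by sign, median 0.05) had their lowest mean, -0.21, in wild-type pool 3, and the same pool was lowest for yolk sac endoderm genes at -0.22 (10 of 15 higher, median 0.11, and 0.03 without mutant pool 1). Of the yolk sac endoderm genes 3 (20.0%), Amn, Fgb and Fgg, were higher without overlap, beside 3.11% of all genes and 16.7% of endothelial genes. Ligands for vessel and blood growth were divided, 7 higher and 6 lower by sign with a median of 0.05. Genotypes did not overlap for 2 of these 13 (15.4%), beside 4.95% of all genes. Vegfb was higher without overlap (log2 difference 0.21), Sema3e, a repulsive cue of vessels, was lower without overlap (-0.26), and Vegfa, the main ligand of Kdr, had -0.07.

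Presomitic mesoderm genes were lower in the mutant by sign for 9 of 9 measured genes of 12 listed, with a median of -0.20, 0 passed, and 3 (33.3%), Tbx6, Hes7 and Lfng, were lower without overlap, beside 1.84% of all genes. Their mean was 0.12, 0.03 and 0.26 in the wild-type pools and -0.16, -0.17 and -0.03 in the mutant pools. Across the 6 pools the endothelial mean had an r of -0.57 and a rho of -0.89 with this mean, and the erythroid mean an r of -0.11 and a rho of 0.37. Without mutant pool 1 these r values were -0.61 and 0.89. The part of tissue make-up in the endothelial values was not tested.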

How the data were processed

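Affymetrix MOE430A arrays of 6 pools were compared, 3 wild type and 3 Dll3 mutant. The authors deposited linear ratios. Judged by the values themselves, the median of a probe set over the 6 arrays is 1 within 0.0011 for 92.8% of 22626 probe sets, below 1 for 1640 and above 1 for 0. The submitters' processing notes list RMA and MAS5 but give no step for either, and background, normalization and absolute level are unknown.

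After removal of 64 control probe sets, 20380 probe sets with 1 gene symbol in the platform annotation were averaged per gene as log2 ratios, giving 12393 genes, and 691 with several symbols and 1555 unnamed ones were not used. Genotypes were compared with limma 3.58.1 in R 4.3.3 (lmFit, eBayes, two-sided, genotype only), with Benjamini-Hochberg adjustment over all genes at a threshold of 0.05. The fit was run on simulated data with independent normal noise and changes larger than any member difference found here. That run therefore does not show whether differences of the members' size could be detected. The 6 arrays limit precision.

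Members and lists were chosen with earlier results of these data known. Values were given in all pools for Kdr, Cdh5, Pecam1, Tek, Tie1, Etv2, Gata1, Klf1, Hbb-bh1, Hba-x and Alas2, and in each list for the 4 smallest p, the 3 widest ranges and genes of at least 0.25 without overlap. Other lists gave up to 4 genes by p and 4 by range, and Nrp2 and Hbb-y were chosen after their values were seen. Alternatives changed scaling, offset, filters, probe set summary, variances and pools. Correlations, and values of the lists of other genes, without mutant pool 1 were added after seeing the data. Plots used matplotlib 3.10.9 in Python 3.11.15.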

Additional observations from a re-analysis of the deposited data

How the results depend on the processing

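No member passed the threshold in any of 582 combinations of member and alternative setting, the smallest adjusted p being 0.5846 under array weights, and 518 kept their direction. The genes past the threshold numbered 2 under quantile normalization, with arrays centred, without probe sets whose median is below 1 and without _s_at, _x_at and _a_at probe sets, 3 under array weights, and 1 to 2 when 1 pool was left out. The endothelial median of 0.09 was 0.048 with log2(ratio + 1) and ran from 0.054 to 0.13 without 1 pool, and the erythroid median ran from -0.040 to 0.045. Signs turned under quantile normalization for Egfl7 (-0.0068), Etv2 (0.014), Epor (-0.054), Epb42 (-0.012) and Hemgn (0.036). They turned with the widest probe set for Flt1 (-0.0058), Egfl7 (-0.020) and Sox17 (-0.053), and for Slc4a1 (0.17) without _s_at, _x_at and _a_at probe sets. Under array weights, which rested mostly on wild-type pool 2 (5.24, against 0.803 and 0.209), they turned for Egfl7 (-0.0089), Erg (-0.0043), Etv2 (0.15), Plvap (-0.041), Gata2 (-0.0057), Epor (-0.088), Hba-a1 (-0.075), Epb42 (-0.026), Hemgn (0.16) and Nfe2 (0.0017). The cause was not tested. Without 1 pool, 12 of 24 endothelial and 11 of 13 erythroid signs turned, over these ranges of the log2 difference: Cdh5 -0.0028 to 0.15, Kdr -0.055 to 0.21, Flt1 -0.0032 to 0.036, Esam -0.089 to 0.073, Egfl7 -0.044 to 0.075, Sox17 -0.050 to 0.14, Ets1 -0.0094 to 0.23, Erg -0.024 to 0.21, Etv2 -0.12 to 0.10, Plvap -0.090 to 0.14, Cldn5 -0.085 to 0.19, Robo4 -0.13 to 0.098, Gata1 -0.11 to 0.027, Gata2 -0.046 to 0.11, Klf1 -0.11 to 0.081, Slc4a1 -0.14 to 0.024, Epor -0.062 to 0.059, Hbb-bh1 -0.057 to 0.099, Hba-x -0.13 to 0.096, Hba-a1 -0.085 to 0.19, Epb42 -0.04 to 0.049, Ermap -0.037 to 0.061, Hemgn -0.23 to 0.15. With the replicate number as a block, 1 gene and 0 members passed and both medians stayed at 0.09 and 0.01. Deviations of same-numbered pools had correlations of 0.19, -0.0016 and 0.21, and those of differently numbered pools ran from -0.20 to 0.12. These values do not settle whether the numbers pair the samples, and the main fit used genotype only. Array weights by gene and pool means under other settings were chosen after seeing the data, and all 72 such means moved by less than the spread between pools.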

Other observations

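Outside all lists, 3265 genes with a range of at least 0.5 on the log2 scale were ranked by their correlation with each list mean over the 6 pools, which share arrays. The 5 most like the endothelial mean were Myo1d (r = 0.98), Pcolce (0.98), Cnot9 (0.97), Tcof1 (0.96) and Rab5c (0.95). Those most like the erythroid mean were Exosc8 (0.99), Gyg (0.97), Chchd10 (0.97), Btd (0.94) and Atp2a2 (0.94). Gyg had a ratio of 2.13 in mutant pool 1, and Atp2a2, the calcium pump of cardiac sarcoplasmic reticulum, had a mean ratio of 1.48 there.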
